A study of Mus musculus and Homo sapiens with 22 samples.

Results

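Mouse heart RNA profiled at inputs of 300, 100 and 50 ng gave m6A lists of 8845, 1112 and 248 sites. They were taken whole, by the input that each list is named for, and came to 10205 of the 118638 sites in the 6 lists of the study, at 8973 distinct positions. Of these sites, 8536 at 300 ng, 1067 at 100 ng and 235 at 50 ng lay in exons of a single annotated gene on the same strand. They named 3448, 688 and 185 genes, 3464 genes in all. The list made from 1 µg of the same RNA, with 46421 sites and 8512 genes, served as the comparison.

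All 4 libraries were made by miCLIP2, in which fragmented RNA is crosslinked by UV light to an antibody against m6A and cDNA synthesis that halts at the crosslink marks the modified base. The RNA was purchased poly(A)+ RNA of mouse heart tissue (Takara Clontech), isolated with guanidinium thiocyanate and selected on oligo(dT)-cellulose. All inputs share this source, with no treatment and no altered gene, and strain, sex, age and number of animals are not given. The titles of the 3 samples give the inputs in µg, whereas the list names and the study's methods give ng, which is used here. Each input is 1 library, so no difference between inputs could be tested against a spread between replicates. The lists themselves give no read depth. The study lists a depth for each library, which falls with the input and was not used here, so input and depth cannot be told apart. Brackets after a share give its Wilson 95% interval, which covers counting error only. A gene without a listed site is called not listed, since absence from a list does not show that the RNA was unmodified or absent.

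m6A is the most frequent internal modification of eukaryotic mRNA and is placed by a nuclear complex around the methyltransferases METTL3 and METTL14, mostly at the motif DRACH (D is A, G or T, R is A or G, H is A, C or T). It is dense in long internal exons, around stop codons and in 3′ UTRs, and sparse in short internal exons next to splice junctions. Reader proteins of the YTH family bind it and tie it to mRNA decay, and in heart muscle METTL3 is known to act on cardiomyocyte growth. A site is read only from RNA that the antibody captured, so the signal at a site reflects both the share of modified molecules and how abundant the transcript is. These were not separated, since no heart expression data were analysed here.

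Of the 10 highest-scored sites at 50 ng (1 per gene, exons of a single gene), the 9 other than that of Slc25a4, the ADP/ATP carrier of heart mitochondria, are shown first. The site of the study's example gene Oat, and 3 further sites from genes that a larger input did not list follow, as examples of the sequence that stayed visible. Each run is the 21 nt around the site, 5′ to 3′ on the transcribed strand, read from GRCm38.p6, with the 5 nt centred on the A of the predicted site in capitals. All of those shown hold DRACH there except that of Nrap, an actin-binding protein of muscle.
Gm42418, chr17:39847321-39847341, plus strand, noncoding exon: aaattcttGGACCggcgcaag
Atp5j2, chr5:145191521-145191541, minus strand, 5′ UTR: agttctgcGGACAccaggact
Cox6a2, chr7:128206314-128206334, minus strand, 5′ UTR: acagagaaGGACAgtgccatt
Malat1, chr19:5801275-5801295, minus strand, noncoding exon: gctaggaaGGACTgaggagcc
BC005537, chr13:24812959-24812979, plus strand, 3′ UTR: ttctgcacGGACTgtgtgaaa
Atp2a2, chr5:122469468-122469488, minus strand, coding sequence: agctcttgGAACTcgtaggat
Myoz2, chr3:123006525-123006545, minus strand, coding sequence: actgctgcTGACAgatcccag
Nrap, chr19:56364392-56364412, minus strand, coding sequence: caggtgaaGTACAaagaaggc
Fem1a, chr17:56259382-56259402, plus strand, 3′ UTR: tagagagaGGACTatctccca
Oat, chr7:132558151-132558171, minus strand, 3′ UTR: gagagtagGAACTctggggag
Gpx3, chr11:54909777-54909797, plus strand, 3′ UTR: tacataaaAGACAagcctggc
Klf15, chr6:90466928-90466948, plus strand, coding sequence: ggtagcagGGACCtggagacc
Glud1, chr14:34311135-34311155, plus strand, coding sequence: atcgtagaGGACAagctggtg

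The sites of the 50 ng list, like those of the 1 µg list, came almost wholly from protein-coding mRNA. Of the 185 genes, 181 were protein-coding (97.8%, 94.6 to 99.2%) and 4 were long noncoding RNAs, and no pseudogene was listed. At 300 ng the same classes held 3391 protein-coding genes, 45 long noncoding RNAs and 8 pseudogenes. At 1 µg 96.5% of genes were protein-coding (96.1 to 96.8%) and 0.564% were pseudogenes. The 50 ng intervals hold both shares, since 0 of 185 pseudogenes allows up to 2.03%. Sites in introns made up 60 of 8845 at 300 ng, 4 of 1112 at 100 ng and 0 of 248 at 50 ng, which allows a share of up to 1.53% at 50 ng. Within exons of the 50 ng list 125 of 235 sites lay in coding sequence (53.2%, 46.8 to 59.5%) and 97 in 3′ UTRs (41.3%, 35.2 to 47.7%), with 8 in 5′ UTRs and 5 in noncoding exons. In the 100 ng list 42.5% of exon sites lay in 3′ UTRs (39.5 to 45.4%), and in the 300 ng list 46.8% (45.7 to 47.8%). The 1 µg share of 48.5% (48.0 to 48.9%) was above the interval of each lower input. By exon, 152 of the 230 sites in coding transcripts at 50 ng lay in the last exon (66.1%, 59.7 to 71.9%) and 58 in internal exons, of which 50 were in exons of at least 400 nt (86.2%, 75.1 to 92.8%). That share was 86.8% at 300 ng (85.2 to 88.2%) and 82.2% at 1 µg (81.4 to 83.0%). At 1 µg the last exon held 69.6% of the sites in coding transcripts (69.2 to 70.0%). Both 1 µg shares lie within the 50 ng intervals. The region of a transcript is one of the features that the site predictor m6Aboost reads, so these shares partly reflect the prediction.

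The number of sites per gene fell with the length of the list. At 50 ng 153 of 185 genes had 1 site (82.7%, 76.6 to 87.5%), against 487 of 688 at 100 ng (70.8%, 67.3 to 74.1%), 1569 of 3448 at 300 ng (45.5%, 43.8 to 47.2%) and 1851 of 8512 at 1 µg (21.7%, 20.9 to 22.6%). These intervals do not overlap between any 2 inputs. A list with fewer sites leaves fewer per gene whichever sites drop out. The counts of sites per gene given here therefore cannot be told apart from list length. Read by sites, genes with 1 site supplied 65.1% of the exon sites at 50 ng, 45.6% at 100 ng, 18.4% at 300 ng and 4.20% at 1 µg. The mean number of sites per gene was 1.27, 1.55, 2.48 and 5.18 in the same order. Genes with 10 or more sites numbered 0 at 50 ng, 4 at 100 ng, 54 at 300 ng and 1268 at 1 µg. The 10 genes with the most sites held 38 of 235 sites at 50 ng (16.2%, 12 to 21.4%) and 269 of 8536 at 300 ng (3.15%, 2.80 to 3.54%). A fixed 10 genes are a larger part of 185 genes than of 3448. This share therefore tends to rise with a shorter list and does not show a stronger concentration of sites.

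**Figure D1:**
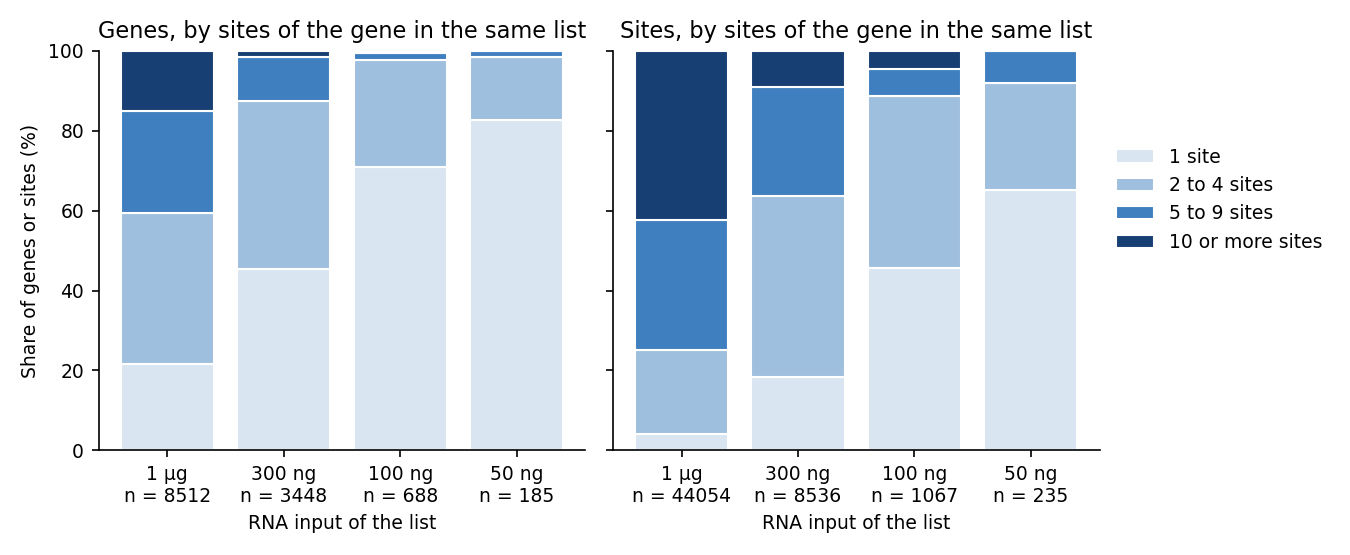
Share of genes (left) and of exon sites (right), in percent, by how many sites the gene has in the same list, for the 4 heart lists; n is the number of genes or sites. Genes with 1 site rise from 21.7% of genes at 1 µg to 82.7% at 50 ng, and genes with 10 or more sites are absent at 50 ng.

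Most genes with 1 site at 50 ng were not genes with 1 site at 1 µg. Of the 153, 59 had 10 or more sites at 1 µg, 50 had 5 to 9, 33 had 2 to 4, 7 had 1 and 4 had none. At 300 ng the 1569 genes with 1 site were spread lower, with 193 at 10 or more sites of the 1 µg list, 543 at 5 to 9, 622 at 2 to 4 and 183 at 1. Genes with 1 site and genes with several also differed in where their sites lay. At 50 ng 77 of 153 sites of genes with 1 site were in 3′ UTRs (50.3%, 42.5 to 58.1%), against 20 of 82 sites of genes with several (24.4%, 16.4 to 34.7%). Coding sequence held 43.8% of the former (36.2 to 51.7%) and 70.7% of the latter (60.1 to 79.5%). The same order was found at 100 ng, where 3′ UTRs held 47.8% (43.4 to 52.3%) against 37.9% (34.1 to 41.9%), and at 300 ng, with 51.9% (49.4 to 54.3%) against 45.6% (44.4 to 46.8%). Genes with several sites were longer, with a median transcript of 4102 nt at 300 ng (95% interval 3950 to 4214 nt) against 3361 nt (3251 to 3491 nt) for genes with 1 site, while at 50 ng the medians of 4363 nt (3062 to 6237 nt) and 3390 nt (2813 to 3811 nt) had overlapping intervals.

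Genes with the most sites in the low-input lists included Ttn and Tacc2. Ttn, which encodes titin, the molecular spring of the sarcomere, had 195 sites at 1 µg, and 71, 16 and 6 sites at 300, 100 and 50 ng. Tacc2, a coiled-coil protein of centrosomes and microtubules, had 36, 22, 10 and 7 sites and led the 50 ng list. The order of genes thus changed with input: Ttn had more sites than any other gene at 1 µg, 300 ng and 100 ng, and at 50 ng it had fewer than Tacc2.

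Other leaders of the 300 ng list thinned out unevenly. Plec, the cytoskeletal linker plectin, went from 32 sites at 300 ng over 8 at 100 ng to 1 at 50 ng. Ahnak, a giant scaffold protein, had 32, 9 and 2 sites, and Xirp1, an actin-binding Xin repeat protein of the intercalated disc, had 25, 10 and 1. Its relative Xirp2 had 19, 6 and 3. Plin4, a coat protein of lipid droplets, had 19, 8 and 1. Spen, a transcriptional repressor, had 17 sites at 300 ng and none at either lower input. Kmt2d, a histone H3 lysine methyltransferase, had 16, 2 and 2. Golga4, a golgin of the Golgi apparatus, was among the leaders at 100 ng, with 9, 6 and 1 sites.

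At 50 ng 32 genes had 2 or more sites, 82 sites in all. Nfe2l1, a transcription factor of proteasome genes, had 3 sites at 50 ng after 23, 15 and 6 at the larger inputs. Fndc5, the precursor of irisin, had 3 after 18, 11 and 7, and Srl, the calcium-binding protein sarcalumenin of the sarcoplasmic reticulum, had 3 after 14, 10 and 3. In 24 of the 31 coding genes among the 32, all 50 ng sites of the gene lay in 1 exon. The nearest pair of sites in a gene was a median of 258 nt apart in the genome, and in 8 genes it was within 100 nt. The sites of Fbxw5, an F-box subunit of ubiquitin ligases, were 6 nt apart and those of Gas1, a membrane-anchored co-receptor of Hedgehog signalling, 14 nt apart. Of the 7 Tacc2 sites, 6 lay in 1 coding exon of 5121 nt. Of the 6 Ttn sites, 1 lay in the exon of 17106 nt, the longest of the gene, 2 in an exon of 5437 nt, 2 in one of 2967 nt and 1 in one of 303 nt. All 3 Nfe2l1 sites lay in the coding part of its last exon, and all 3 Fndc5 sites in its 3′ UTR.

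**Figure D2:**
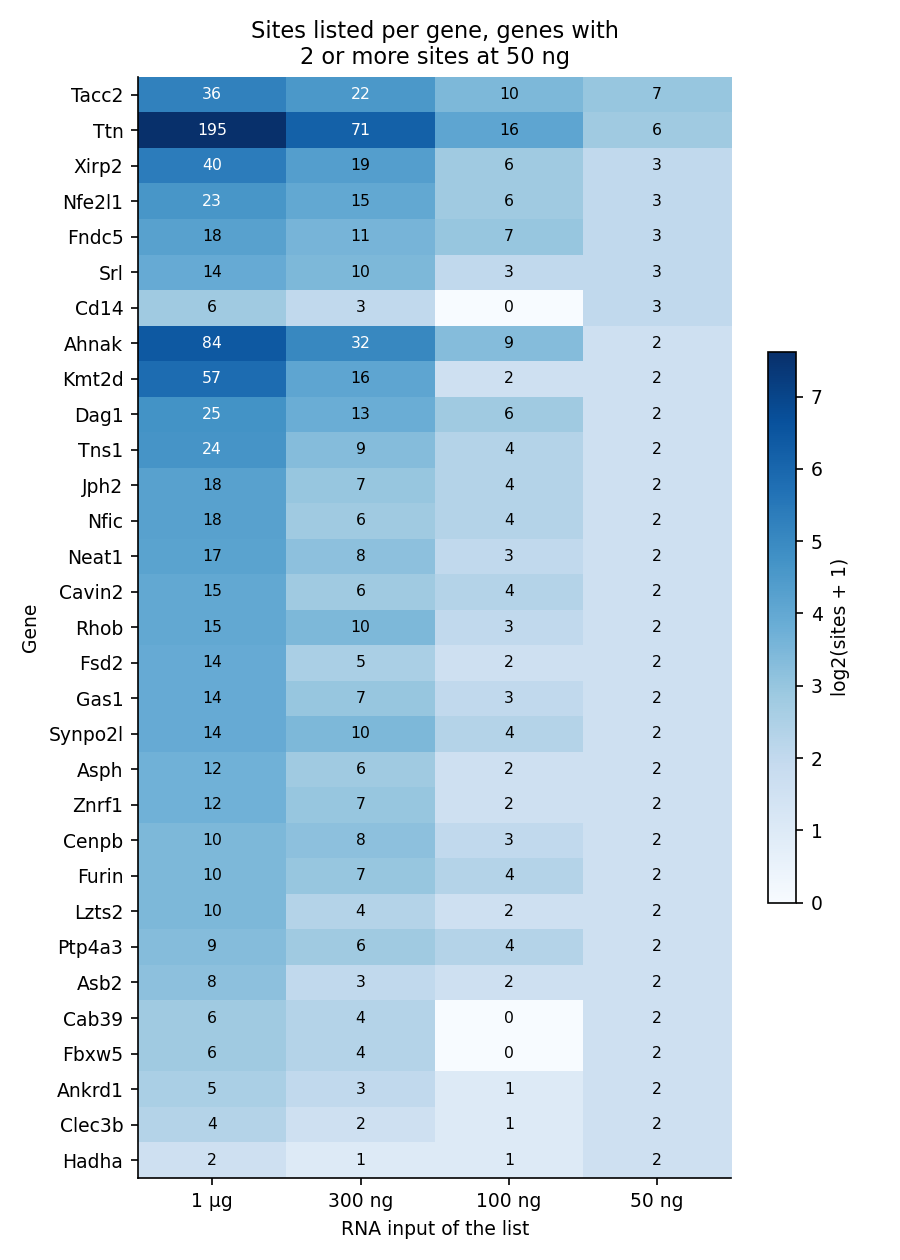
Number of sites listed at each input for 31 of the 32 genes with 2 or more sites at 50 ng; the printed number is the count and the colour is log2(sites + 1). Counts fall from left to right for most genes, with Cd14, Cab39 and Fbxw5 at 0 at 100 ng and Hadha, Ankrd1 and Clec3b higher at 50 ng than at 100 ng.

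Membership by gene was close to nested. Of the 185 genes at 50 ng, 181 were listed at 1 µg (97.8%, 94.6 to 99.2%) and 181 at 300 ng, but 159 at 100 ng (85.9%, 80.2 to 90.2%). Of the 688 genes at 100 ng, 675 were listed at 300 ng (98.1%, 96.8 to 98.9%), and of the 3448 at 300 ng, 3419 at 1 µg (99.2%, 98.8 to 99.4%). In all, 3397 of the 3464 genes (98.1%) were listed at every input above the lowest at which they appeared. For 2727 of them this meant the 300 ng and 1 µg lists alone. All 4 inputs listed 156 genes, 84.3% of the genes at 50 ng. Sites were less nested than genes. Of the 248 sites at 50 ng, 237 stood at the same base at 1 µg (95.6%, 92.2 to 97.5%), 231 did so at 300 ng (93.1%, 89.3 to 95.7%) but 167 at 100 ng (67.3%, 61.3 to 72.9%), and 162 stood at all 4 inputs. Among the 159 genes shared by the 50 and 100 ng lists, 131 shared at least 1 site (82.4%, 75.7 to 87.5%), whereas of the 681 genes shared by the 100 ng and 1 µg lists 664 did (97.5%, 96.0 to 98.4%). So 28 genes were listed at both 50 and 100 ng without a base in common. At 300 ng the 588 sites that were not at 1 µg had a median score rank of 24.9% within their list, against 51.9% for the other 8257, and 530 of the 588 lay in genes with 1 µg sites. At 100 ng the 42 such sites had a median rank of 50.1%, against 50% for the others. At 50 ng the 11 such sites had a median rank of 68.4%, against 49.4%, and 5 of the 11 lay in genes with 1 µg sites.

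Of lists at neighbouring inputs, those at 50 and 100 ng were the least nested. The 100 ng list is also much shorter than those at 300 ng and 1 µg, which limits how many genes it can share. Of the 26 genes listed at 50 ng and not at 100 ng, 22 were listed at both 300 ng and 1 µg. They include Cd14, the lipopolysaccharide co-receptor of monocytes and macrophages, with 6, 3, 0 and 3 sites from 1 µg down to 50 ng. Its 3 sites at 50 ng scored above 53.4%, 51.2% and 30.7% of the other sites at 1 µg. The median 1 µg rank of all sites shared by the 50 ng and 1 µg lists was 98.9%. Cab39, a scaffold of the LKB1 kinase, had 6, 4, 0 and 2 sites, and Fbxw5 the same numbers. Of single-site genes in this group, Adcy6, an adenylyl cyclase, had 19, 7, 0 and 1 sites, Klf15, a transcription factor of cardiac metabolism, 9, 4, 0 and 1, and Tfam, the transcription factor of mitochondrial DNA, 5, 3, 0 and 1. The others included Abhd17a, Clasp1, Ctsb, Ddx21, Dlst, Gabarapl1, Larp1, Ppp1r9b, Rassf3, Sec62, Slc25a3, Tbc1d9b, Ulk1, Vps26a and Zbtb4, each with 1 site at 50 ng and 1 to 4 sites at 300 ng, except Zbtb4 with 6.

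A few genes broke the order at the larger inputs. Acadvl, which encodes very long-chain acyl-CoA dehydrogenase of fatty acid oxidation, was listed at 50 ng only, with 1 coding site. Atp5j2, a subunit of ATP synthase, was listed at 50 and 300 ng, and its 50 ng site scored above 98.4% of the other 50 ng sites. Gpx3, the secreted glutathione peroxidase, was listed at the same base at 50, 100 and 300 ng and not at 1 µg. Gm42418 had the same pattern, with a site at chr17:39847331 that scored above 98.8% of the 50 ng sites. GENCODE calls this locus a long noncoding RNA, and RefSeq places the 18S ribosomal RNA related sequence Rn18s-rs5 over it on the same strand, so reads of ribosomal RNA could not be told apart from reads of this locus. Bgn, the matrix proteoglycan biglycan, and Glud1, the mitochondrial glutamate dehydrogenase, each had 3 sites at 1 µg, none at 300 and 100 ng and 1 at 50 ng, and the Glud1 site was not among its 1 µg sites. Atp5d, also of ATP synthase, had 3, 0, 2 and 1 sites from the largest input to the smallest. In the other direction, mt-Nd5, encoded in mitochondrial DNA, had 2 sites at 300 ng and none at 1 µg.

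Of the 8512 genes of the 1 µg list, 40.2% were listed at 300 ng, 8.00% at 100 ng and 2.13% at 50 ng, and these shares are the background for the counts that follow. The share rose with the number of sites that the gene had at 1 µg. At 50 ng it was 0.378% for the 1851 genes with 1 site (0.183 to 0.779%), 1.09% for 2 to 4 sites (0.787 to 1.52%), 2.56% for 5 to 9 sites (1.97 to 3.30%) and 6.55% for 10 or more (5.31 to 8.04%). At 100 ng the 4 shares were 1.46%, 3.90%, 10.2% and 24.1%, and at 300 ng 10.4%, 28.2%, 57.3% and 84.2%. At each of the 3 inputs the intervals of neighbouring groups did not overlap, with the closest at 50 ng, where genes with 1 site reached up to 0.779% and those with 2 to 4 began at 0.787%. A gene with more sites also has more chances to be listed, and counted per site the rise was smaller at each input. Of the 1 µg sites in genes with 1 site, 0.378% stood at 50 ng (0.183 to 0.779%), in genes with 2 to 4 sites 0.372% (0.266 to 0.519%), with 5 to 9 sites 0.430% (0.336 to 0.551%) and with 10 or more 0.659% (0.553 to 0.786%). At 100 ng the per-site shares were 1.24% (0.829 to 1.86%), 1.52% (1.29 to 1.79%), 1.92% (1.71 to 2.16%) and 3.15% (2.91 to 3.41%). At 300 ng they were 9.13% (7.90 to 10.5%), 12.5% (11.9 to 13.2%), 16.9% (16.3 to 17.5%) and 22.7% (22.1 to 23.3%), without overlap between neighbouring groups. The median number of 1 µg sites was 9 (95% interval 7 to 10) for genes still listed at 50 ng, 8 (8 to 9) for genes last listed at 100 ng, 6 (6 to 7) at 300 ng and 2 for the 5080 genes listed at 1 µg only.

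**Figure D3:**
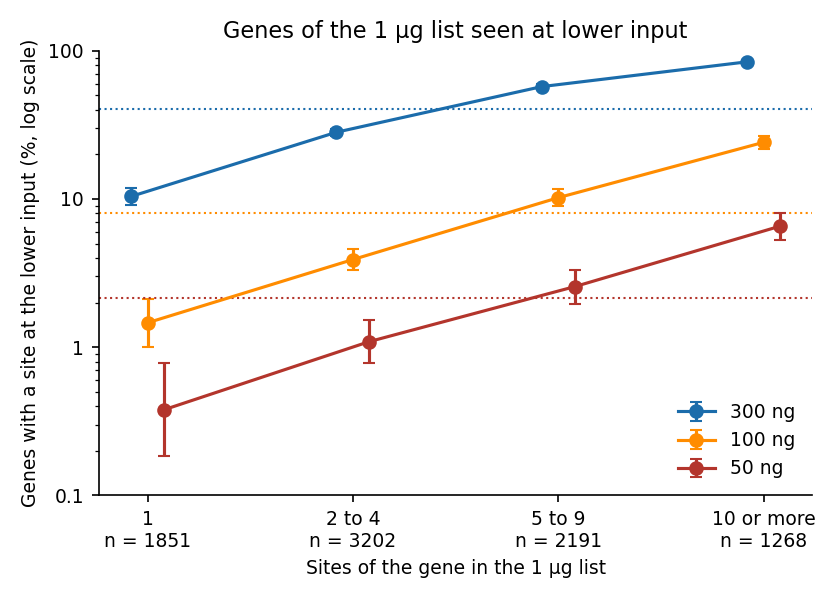
Share of the genes of the 1 µg list with a site at 300, 100 or 50 ng, in percent on a log scale, by the gene's number of sites at 1 µg; points are shares, bars Wilson 95% intervals, and dotted lines the share of all 8512 genes (40.2%, 8.00% and 2.13%). All 3 lines climb from 1 site to 10 or more sites, at 50 ng from 0.378% to 6.55%.

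The same held when genes were counted within the low inputs alone. Of genes with 1 site at 300 ng 1.59% were listed at 50 ng (1.08 to 2.34%), of those with 2 to 4 sites 4.83% (3.84 to 6.06%), of those with 5 to 9 sites 16.5% (13.1 to 20.6%) and of the 54 with 10 or more 44.4% (32.0 to 57.6%). Of genes with 1 site at 100 ng 70 of 487 were listed at 50 ng (14.4%, 11.5 to 17.8%), and of those with 2 to 4 sites 76 of 186 (40.9%, 34.1 to 48.0%). All 4 genes with 10 or more sites at 100 ng, among them Ttn, Tacc2 and Xirp1, were listed at 50 ng.

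The sites that stayed were mostly among the highest-scored of the 1 µg list. The deposited score, whose scale is not stated, was used to rank the 1 µg sites within their list. Of the 237 sites shared by the 50 ng and 1 µg lists, 213 were in the highest-scoring 10% at 1 µg (89.9%, 85.4 to 93.1%) and 2 in the lower-scoring 50%. At 100 ng 79.5% of the shared sites were in that top 10% (77.0 to 81.8%) and at 300 ng 41.3% (40.2 to 42.4%). Read the other way, 4.59% of the sites in the highest 10% were listed at 50 ng (4.02 to 5.23%) and 0.259% of those in the next 10% (0.148 to 0.451%). Of the 61 sites at the ceiling of the score, 24 were listed at 50 ng (39.3%, 28.1 to 51.9%), 39 at 100 ng and 57 at 300 ng. By gene, 18.9% of the 852 genes whose best 1 µg site ranked in the top 10% of genes were listed at 50 ng (16.4 to 21.7%), against 0.940% of the 1276 genes in the 15% below them (0.539 to 1.64%). The score comes from the same miCLIP2 signal as the lists, so it is not an independent measure.

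**Figure D4:**
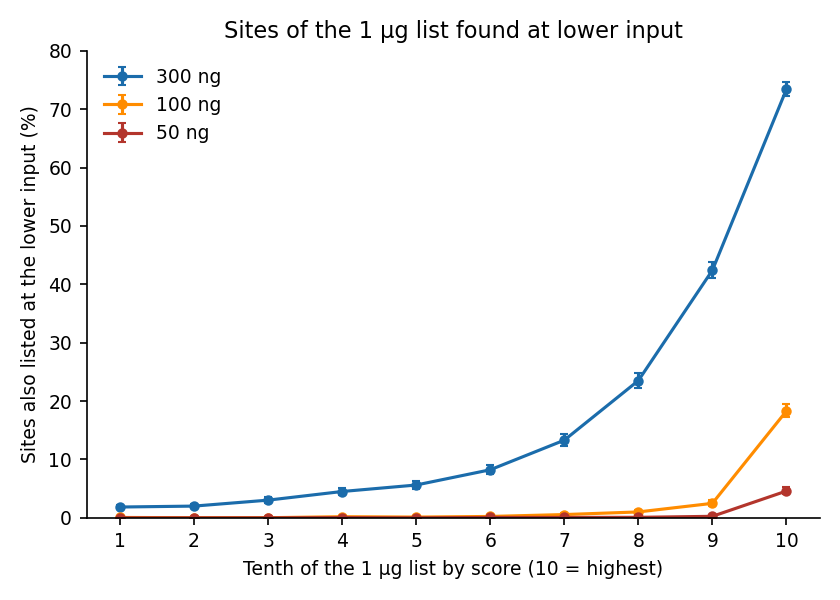
Share of the 1 µg sites that stand at the same base at 300, 100 or 50 ng, in percent, by 10% band of the 1 µg list ranked by the deposited score (band 10 is the highest); bars are Wilson 95% intervals. The 300 ng line climbs over all bands to 73.4%, while 100 and 50 ng stay near 0 up to the band before the last and reach 18.3% and 4.59% in the last.

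Within a gene the site that remained was often the top one, at similar shares for all 3 inputs once genes with a single remaining site were compared. In genes with 5 or more sites at 1 µg, the highest-scoring site of each gene made up 10.5% of all 1 µg sites of these genes, 25.2% of those also listed at 300 ng (24.1 to 26.2%), 38.6% of those at 100 ng (35.4 to 41.9%) and 44.3% of those at 50 ng (37.4 to 51.5%). The intervals at 100 and 50 ng overlap, and the score comes from the same miCLIP2 signal as the lists. Of the 109 such genes with exactly 1 shared site at 50 ng, that site was the gene's top-ranked in 61 (56.0%, 46.6 to 64.9%), against 57.8% of 339 genes at 100 ng (52.5 to 63.0%) and 52% of 750 at 300 ng (48.4 to 55.6%). Of all such genes with a shared site, the top-ranked site was listed in 72.6% of 2289 at 300 ng (70.7 to 74.4%), 62.7% of 520 at 100 ng (58.5 to 66.7%) and 56.5% of 138 at 50 ng (48.2 to 64.5%). Oat, which encodes mitochondrial ornithine aminotransferase, kept its top-ranked site. At 1 µg, 300 ng and 100 ng it had the same 3 sites in its 3′ UTR, and at 50 ng it kept the one at chr7:132558161, 9 nt after the stop codon. That site scored highest of the 3 at each larger input, above 99.7%, 99.6% and 97.3% of the sites of its list, whereas the weakest at 100 ng, at chr7:132557969, scored above 39.0%.

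Many sites at 1 µg did not always keep a gene in the 50 ng list. The 10 genes with the most 1 µg sites and none at 50 ng were Macf1 (48 sites), a linker of microtubules and actin, Spen (40), the kinase Alpk2 (39), Pdzd2 (39), Ankrd50 (37), the plakin Dst (37), Tnrc6c (35), a partner of Argonaute in miRNA silencing, the pericyte proteoglycan Cspg4 (34), Nsd1 (33), a histone H3 lysine methyltransferase, and Arhgap35 (31), a GTPase-activating protein. Of the 10, Dst alone was listed at 100 ng, with 2 sites, and at 300 ng they had from 2 sites, in Macf1 and Arhgap35, to 17 in Spen. Their best 1 µg sites ranked from 81.6% in Arhgap35 to 98.3% in Dst, below the median of 99.3% (99.0 to 99.4%) over the 181 genes listed at both 1 µg and 50 ng.

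The reverse case was rare. Of the 1851 genes with 1 site at 1 µg, 7 were listed at 50 ng. They were Cox6a2, the muscle form of a cytochrome c oxidase subunit, Rps24, a protein of the small ribosomal subunit, Atp5o, a subunit of ATP synthase, S100a1, a calcium sensor of cardiomyocytes, Cnbp, a nucleic acid-binding zinc finger protein, Ndrg2, and Vps26a, a retromer subunit. The first 6 had exactly 1 site at each of the 4 inputs, and Vps26a had 1, 2, 0 and 1. The Cox6a2 site, in the 5′ UTR, scored above 98% of the 50 ng sites and above 99.9% of the 1 µg sites, whereas the Cnbp site scored above 61.5% and 37.2%.

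Genes listed down to 50 ng could not be separated by transcript length from the other groups at the precision of the medians. The median transcript was 3594 nt (3276 to 4023 nt) for genes listed down to 50 ng, 3761.5 nt (3578 to 4026 nt) for 100 ng, 3713 nt (3626 to 3855 nt) for 300 ng and 3361.5 nt (3293 to 3433 nt) for genes listed at 1 µg only, and the 50 ng interval overlaps that of each other group. The intervals at 100 and 300 ng lay above that of genes listed at 1 µg only. The median number of exons was 8 or 9 in all 4 groups. The density of 1 µg sites was higher in each low-input group than in genes listed at 1 µg only. Its median was 2.35 sites per 1000 nt of transcript (2.05 to 2.74) for genes listed down to 50 ng and 2.35 (2.15 to 2.53) for 100 ng. It was 1.72 (1.66 to 1.78) for 300 ng and 0.745 (0.726 to 0.770) for genes listed at 1 µg only. So density did not separate the 50 ng genes from those last listed at 100 ng. Among genes with 5 to 9 sites at 1 µg, the median transcript was 3188 nt (2482 to 3728 nt) for those listed at 50 ng. It was 3213 nt (2779 to 3484 nt) for those last listed at 100 ng and 3633 nt (3524 to 3777 nt) for 300 ng. All were below the 4315 nt (4153 to 4453 nt) of those listed at 1 µg only, and the 50 ng interval overlapped those at 100 and 300 ng. Intronless genes were listed at 50 ng in 10 of 317 cases (3.15%, 1.72 to 5.71%), an interval that holds the background of 2.13%. Coding genes of this kind were Cenpb, the centromere protein that binds the CENP-B box, with 10, 8, 3 and 2 sites, Gas1, with 14, 7, 3 and 2, the GTPase Rhob, with 15, 10, 3 and 2, and Fem1a, Tspyl1, Ubqln2, Fahd1 and Ier5, with 1 site each at 50 ng.

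Genes of the pathway lists, which cover contraction, calcium, metabolism and housekeeping functions, were a larger share of each smaller list. These lists were chosen with earlier results of these data known, so the rise and the list shares below cannot be separated from that choice. Genes on any of the 15 pathway lists used here were 2.57% of the 1 µg genes (2.26 to 2.93%), 4.52% of those at 300 ng (3.88 to 5.27%), 10.6% of those at 100 ng (8.52 to 13.1%) and 20% of the 185 genes at 50 ng (37 genes, 14.9 to 26.3%). Of the calcium handling genes listed at 1 µg, 6 of 14 were listed at 50 ng (42.9%, 21.4 to 67.4%, beside the background of 2.13%). They were the ryanodine receptor Ryr2, the calcium pump Atp2a2, the L-type channel Cacna1c, the junctional membrane protein Jph2, the hydroxylase and junctin gene Asph and the histidine-rich calcium-binding protein Hrc. Jph2 had 18, 7, 4 and 2 sites from 1 µg down to 50 ng and Atp2a2 3, 1, 1 and 1.

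Of the sarcomere and Z-disc genes 7 of 26 were listed at 50 ng (26.9%, 13.7 to 46.1%), with 20 sites. They included Ttn, Xirp1, Xirp2, the M-band protein Myom1, the calcineurin-binding Z-disc protein Myoz2 and the actin-associated Synpo2l. Myoz2 had 2 sites at each of the 3 larger inputs and 1 at 50 ng. This list had a median of 2.50 sites per gene at 1 µg, below the median of 4 over all genes, and most of its thick and thin filament genes had few sites: Myh6, the main adult cardiac myosin heavy chain, had 1, 2, 1 and 0, Tnnt2, cardiac troponin T, 2, 1, 0 and 0, and Mybpc3 1, 1, 0 and 0. Actc1, cardiac actin, was listed at 300 ng only. At the intercalated disc and costamere, 2 of 14 were listed at 50 ng (14.3%, 4.01 to 39.9%). They were the desmosomal Dsp (14, 9, 3 and 1 sites) and the dystroglycan gene Dag1 (25, 13, 6 and 2).

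Some genes of energy metabolism also stayed visible, and most genes of these lists did not. The background at 50 ng is again 2.13%. In fatty acid uptake and oxidation, 4 of 18 genes listed at 1 µg were listed at 50 ng (22.2%, 9 to 45.2%), namely Cpt2, Mlycd, Acacb and Hadha, beside Acadvl. Hadha, the alpha subunit of the mitochondrial trifunctional protein, had 2, 1, 1 and 2 sites, and 1 of its 50 ng sites was listed at 100 and 300 ng but not at 1 µg. Of 83 genes of the nuclear-encoded respiratory chain 21 were listed at 1 µg, with a median of 2 sites per gene. Of the 21, 5 were listed at 50 ng (23.8%, 10.6 to 45.1%), Cox6a2, Atp5d, Uqcrfs1, Atp5o and Ndufa2, beside Atp5j2. In glycolysis, the citric acid cycle and creatine kinase 3 of 21 were listed at 50 ng (14.3%, 4.98 to 34.6%). They were the muscle phosphofructokinase Pfkm, the insulin-regulated glucose transporter Slc2a4 and the mitochondrial aspartate aminotransferase Got2 (6, 5, 4 and 1 sites). Of the chaperone genes 3 of 9 were listed at 50 ng (33.3%, 12.1 to 64.6%), Hspa5, Bag3 and Dnajb4. Of the natriuretic peptide and stretch genes 1 of 4 was listed at 50 ng (25%, 4.56 to 69.9%). It was Ankrd1, a titin-binding protein induced by stretch, with 5, 3, 1 and 2 sites.

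The lists not yet named had 0 or 1 gene at 50 ng, which cannot be told from the background at these list sizes except where said. Ion channel genes had a median of 8 sites at 1 µg, and 10 of 15 were listed at 300 ng (66.7%, 41.7 to 84.8%), 2 at 100 ng and 0 at 50 ng, where a count of 0 leaves an interval up to 20.4%. Genes of the m6A machinery had a median of 10.5 sites, and 10 of 14 were listed at 300 ng, 2 at 100 ng and 0 at 50 ng (up to 21.5%). Rbm15, an adaptor of the writer complex, went from 21 sites over 5 to 0. Of the cardiac transcription factors 17 of 18 were listed at 300 ng (94.4%, 74.2 to 99.0%), 7 at 100 ng, among them Nkx2-5, Gata4, Tbx20 and Hand2, and 1, Klf15, at 50 ng (5.56%, 0.988 to 25.8%). Of the extracellular matrix genes 16 of 22 were listed at 300 ng, 3 at 100 ng and 1, the perlecan gene Hspg2, at 50 ng (4.55%, 0.807 to 21.8%). Of 84 genes of cytosolic ribosomal proteins 16 were listed at 1 µg and 9 and 2 at 300 and 100 ng, and Rps24 remained at 50 ng. Of the genes for muscle ubiquitin ligases and autophagy, Gabarapl1 was listed at 50 ng and none at 100 ng. The intervals at 50 ng are wide, and those of the lists just named hold the background share of 2.13%, apart from that of muscle ubiquitin ligases and autophagy, whose 1 of 6 genes gives 3.01 to 56.4%.

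**Figure D5:**
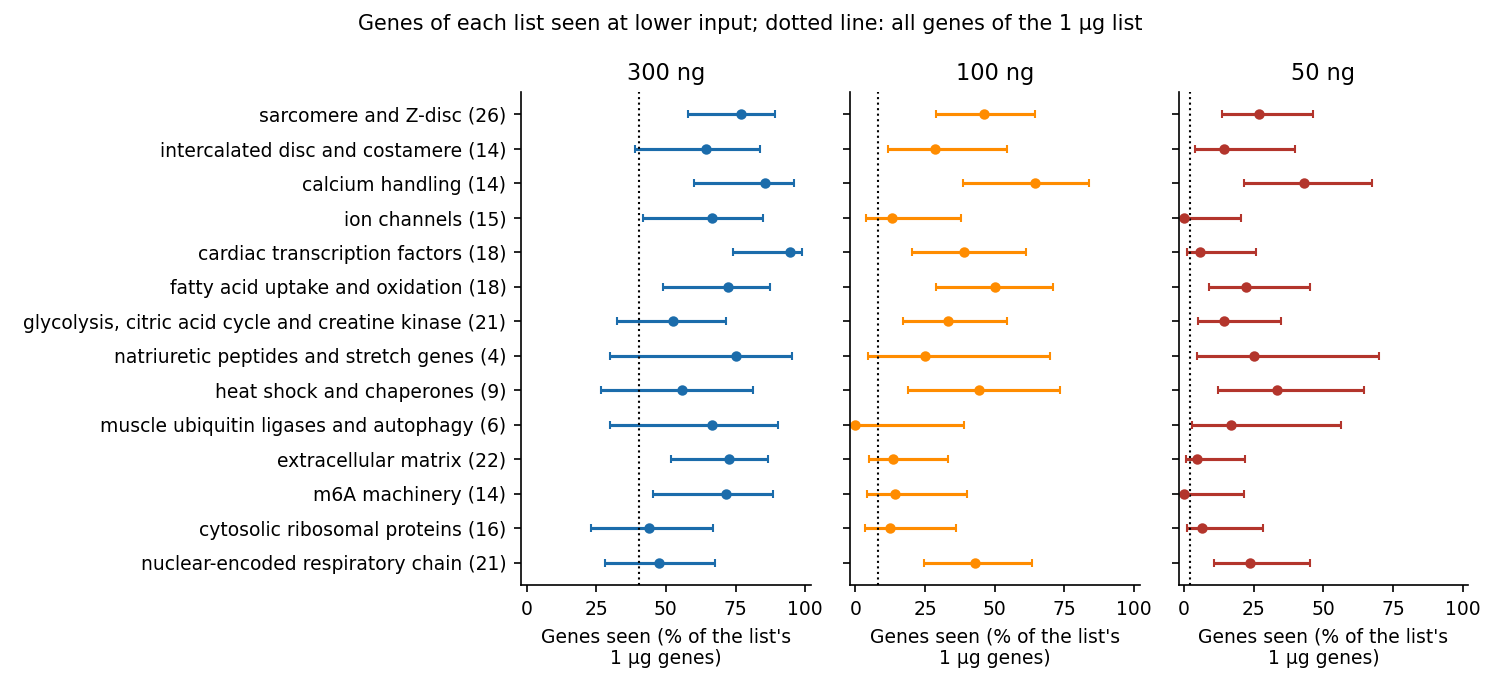
Share of each list's 1 µg genes (number in brackets) that had a site at 300, 100 or 50 ng, in percent, with Wilson 95% intervals; dotted lines mark the share of all 1 µg genes (40.2%, 8.00% and 2.13%). Calcium handling genes keep the largest share at 100 and 50 ng (64.3% and 42.9%), and ion channels and the m6A machinery reach 0 at 50 ng.

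Of the markers of heart cell types, 2 of cardiomyocytes and 1 of macrophages were listed at 50 ng. Among marker genes of the 1 µg list these were 2 of 6 (33.3%, 9.68 to 70.0%) and 1 of 5 (20%, 3.62 to 62.4%), beside the background of 2.13%. Both intervals overlap those of the endothelial, fibroblast and smooth muscle markers given below. Of 10 cardiomyocyte markers 7 were listed at 300 ng, 3 at 100 ng and 2, Ttn and Ryr2, at 50 ng, with 89, 18 and 7 sites in sum, of which 71, 16 and 6 were those of Ttn. Tnni3, Myl2 and Nppa were not listed at any input. Endothelial markers had 23, 7 and 0 sites at 300, 100 and 50 ng, with Kdr (7, 5 and 0) and Cdh5 (8, 2 and 0) in front. Fibroblast markers had 19, 1 and 0 sites, and markers of smooth muscle and pericytes 24, 1 and 0. At 50 ng this is 0 of 9 endothelial, 0 of 9 fibroblast and 0 of 8 smooth muscle genes of the 1 µg list, with upper limits of 29.9%, 29.9% and 32.4%, so each interval holds the background of 2.13%. The 8 markers of macrophages and leukocytes had 6, 0 and 3, and the 3 were those of Cd14. Markers of adipocytes, Schwann and nerve cells, skeletal muscle, liver and embryonic stem cells had none at the 3 low inputs, and erythroid markers 1 at 300 ng.

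Noncoding RNAs made up a small share of genes at every input. The 4 long noncoding RNAs at 50 ng were Neat1, the scaffold of paraspeckles, with 17, 8, 3 and 2 sites, Malat1, an abundant nuclear RNA, with 6, 4, 1 and 1, 1700020I14Rik, with 16, 5, 3 and 1, and Gm42418. The Malat1 site scored above 97.6% of the 50 ng sites. Xist, the RNA that silences one X chromosome, had the most sites of the noncoding genes at 300 ng, with 14, and none at 100 or 50 ng. Peg13, an imprinted RNA, had 25, 10, 2 and 0 sites and Gm31251 had 4, 5, 1 and 0. Of the long noncoding RNAs of the 1 µg list 19.3% were listed at 300 ng (14.7 to 24.9%), against 41.0% of protein-coding genes (39.9 to 42.0%). At 50 ng the shares were 1.32% (0.448 to 3.80%) and 2.17% (1.87 to 2.51%), with overlapping intervals.

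At 50 ng 13 sites lay outside the exons of a single gene. In 6 cases exons of several genes overlap, as for Phospho1 and Zfp652 or Ftl1 and Gm22133, 3 sites were antisense to a gene and 4 were in no GENCODE gene. RefSeq places the one at chr11:70657201 in an exon of Eno3, the muscle enolase, and the one at chr5:122196272 in the predicted gene Gm52787. The site with the highest score of the whole 50 ng list, at chr16:17222390, lies in neither annotation, is not at DRACH, and was listed at 100 ng but not at 300 ng or 1 µg.

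Beyond the heart, most genes of the 50 ng list were also expressed in mouse embryonic stem cells (mESCs), although many were not. Of the 181 genes listed at 50 ng and 1 µg, 145 had at least 1 CPM (gene counts scaled to a common library total) in each of 3 wild-type mESC RNA-seq libraries (80.1%, 73.7 to 85.3%). The share was 85.7% for genes last listed at 100 ng (82.4 to 88.4%), 88.2% for those last listed at 300 ng (87.0 to 89.4%) and 83.3% for those at 1 µg only (82.2 to 84.3%), so the 50 ng interval lay below that of the 300 ng group and overlapped the others. Of the 1031 genes of the 1 µg list with less than 1 CPM in every mESC library, 28 were listed at 50 ng (2.72%, 1.89 to 3.90%), near the 2.01% of genes with at least 1 CPM (1.71 to 2.35%). The m6A list of the mESCs held a site in 126 of the 181 (69.6%, 62.6 to 75.8%), in 73.5% of genes last listed at 100 ng (69.5 to 77.1%) and 73.6% of those last listed at 300 ng (71.9 to 75.2%), and in 52.8% of genes listed at 1 µg only (51.4 to 54.1%). Clec3b, with 0.0573 ± 0.0650 CPM in mESCs (SD, n = 3), had no mESC site, and Tacc2, with 178 ± 37.3 CPM, had 13.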

How the data were processed

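The deposited heart lists hold 1 line per predicted m6A site, with position, strand and a score. According to the study's methods the authors trimmed the miCLIP2 reads, mapped them to GRCm38.p6 (mm10) with STAR 2.7.3a, removed duplicates by molecular identifier with UMI-tools 1.0.0, called peaks with PureCLIP and classified peaks at A with m6Aboost. That classifier reads sequence, transcript region, relative signal strength and C-to-T changes. For other conditions peaks had to recur across replicates, and the filter used for 1 heart library per input is not given in the sources used here. The scale of the deposited score is not stated, so it served only to rank sites within a list, and a rank is the percent of the list's sites with a lower score. The wild-type mESC gene counts were made by the authors with STAR 2.6.1b and HTSeq 0.12.4. The 3 libraries held 22746733, 24714987 and 23462116 counts in genes, and lines that name no gene (38.8 to 42.7% of all counts) were left out. CPM were computed here from these deposited counts.

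Sites were assigned to genes of GENCODE M21 (GRCm38) by exon and strand. A site that lay in exons of more than 1 gene entered no gene count, and the transcript region was read from the gene's longest coding transcript. A site was shared between lists at the same base and strand. Shares have Wilson 95% intervals, and medians have exact binomial order-statistic intervals over genes, which are not replicates. With 1 library per input no test was run and no p-value is given. Assignment was checked on simulated sites. Sequence windows came from the RefSeq GRCm38.p6 genome. Scripts used Python 3.11.15, pandas 2.3.3, NumPy 2.4.6, SciPy 1.17.1, pysam 0.24.0 and Matplotlib 3.10.9.

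The members and gene lists were chosen with earlier results of these data known. Named genes were the 10 with most sites at each low input, those with 2 or more sites at 50 ng, list members at 50 ng, 50 ng genes missing from a larger input, the 10 with most 1 µg sites and none at 50 ng, genes with 1 site at 1 µg and one at 50 ng, noncoding genes at 50 ng with the 5 leading ones at 300 ng, and Oat. A few genes that this rule selects are not reported here. Other named genes are list members chosen after their values were seen. In all, 11 alternative settings were tried.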

Additional observations from a re-analysis of the deposited data

How the results depend on the processing

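Of 91 values recomputed under 11 alternative settings, 78 moved by less than their counting interval (counts of genes by less than 1.5 times) and 13 moved more. With the higher-scoring 50% of each list alone, genes numbered 2171, 377 and 95 at 300, 100 and 50 ng, and genes with 1 site made up 58.6% and 76.4% at 300 and 100 ng. There the share of 300 ng genes listed at 1 µg was 98.3% and that of 300 ng sites 94.1%. This setting keeps fewer sites by construction. Counting sites in exons of several genes for every such gene gave 98.7% for the 300 ng genes listed at 1 µg. Matching sites within 10 nt gave 94.1% of 300 ng sites in the 1 µg list. Reading the region from any transcript with 3′ UTRs first gave 3′ UTR shares of 51.5% at 300 ng and 47.0% at 100 ng, and with coding sequence first 45.4% at 300 ng. With at least 10 counts in every wild-type mESC library, the median mESC level of the 50 ng genes was 58.6 CPM in place of 37.3 CPM, since genes with few counts drop out.

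No paired analysis was possible because each input is 1 library and no result comes from a test. The lists carry no depth and no heart transcript levels were analysed here, so the level of a transcript, its share of modified molecules and the depth of the library cannot be told apart. Intervals cover counting error only. The 50 ng list has 235 exon sites, so shares within it are known to several percentage points at best.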
